A study of Mus musculus with 2 samples.

Results

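The genes described here are 10 members of the bone morphogenetic protein (BMP) pathway, chosen by symbol among the 32285 genes of the count tables. They are the ligand genes Bmp4, Bmp6 and Bmp7, the receptor genes Bmpr1a, Bmpr1b and Bmpr2, and the Id genes Id1, Id2, Id3 and Id4. Their transcripts were counted in cells dissociated from mouse cerebral cortex at embryonic day (E) 16.5, in 2 libraries that form a single wild-type (WT) group. The sample titles carry the name EomesDot, which the labels do not explain, and the genotype of both libraries is given as WT. There was no mutant or treated group, so all comparisons are made between classes of cells within the libraries (n = 2). The p-values measure how far differences between classes vary from 1 library to the other, after the difference shared by all classes is removed. This spread is estimated over all classes of a fit together, since 2 libraries are too few for 2 classes alone. The labels do not say whether a library holds 1 embryo or several, so the spread covers these libraries only and may be technical. The study used such data, from embryos it describes as C57BL6/J, to predict which signals could pass from somatostatin-positive cortical interneurons to radial glial cells (RGCs) and intermediate progenitor cells (IPCs).

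BMPs are secreted proteins that bind a complex of type I receptors, such as those encoded by Bmpr1a and Bmpr1b, and type II receptors, such as that encoded by Bmpr2. The activated type I receptor phosphorylates Smad1, Smad5 and Smad9, which enter the nucleus with Smad4 and switch on target genes, with the Id genes among the best known. Id proteins lack a DNA-binding region and hold E proteins (encoded by Tcf3, Tcf4 and Tcf12) away from the proneural factors that drive neuronal differentiation. In the developing forebrain, BMPs come from the dorsal midline, choroid plexus and meninges, and BMP signaling is known for its part in dorsal patterning, gliogenesis and the growth of blood vessels.

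The libraries held 9049 and 13556 cell barcodes with 46398156 and 64324236 unique molecular identifiers (UMIs, each standing for 1 captured transcript), and 40 barcode sequences occurred in both. Cells holding 1500 to 60000 UMIs, with less than 10% of them mitochondrial, were kept, which left 5966 cells in library 1 (median 5706 UMIs) and 10247 in library 2 (median 4938 UMIs). Cells were then assigned to classes by their detected marker genes, none of which is a member. The rule placed 40.2% and 35.1% of the kept cells in a class and left the rest without one. The classes carry the ending "-like", and 16 of the 17 held at least 20 cells in each library. In each of these 16, every marker of the class's own list was detected in both libraries. Levels are CPM, which is the number of UMIs of a gene per 1000000 UMIs of the class in that library. In bulk sums of this kind, fewer expressing cells and less RNA per cell cannot be told apart. Erythroid-like cells (59 and 91 cells) served as a guide to free RNA, because red cells lack most cortical transcripts. They held 0 UMIs of Bmp4, Bmp6 and Bmp7 in both libraries, a count that allows up to 11.4 CPM in library 1 and 6.54 CPM in library 2. For Id1 they held 0 and 6.54 CPM, for Id3 7.62 and 2.18 CPM, for Id4 3.81 and 17.4 CPM, and for Id2 61.0 and 28.3 CPM. Ttr, the main secreted product of choroid plexus epithelium, had a UMI in 0.302% of the kept cells of library 1 and in 21.1% of those of library 2.

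The ligand genes were concentrated in the meninges. Bmp6, a ligand known from bone and iron regulation, reached 504 and 433 CPM in the 39 and 96 meningeal fibroblast-like cells of libraries 1 and 2. These cells made up 0.654% and 0.937% of the kept cells and held 61.1% and 62.4% of all Bmp6 UMIs. RGC-like cells came next with 11.9 and 4.87 CPM, and the other 14 classes lay between 0 and 7.24 CPM in every library. No other class overlapped the meningeal fibroblast-like cells for this gene.

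Bmp7, a ligand with known functions in kidney, eye and meningeal development, showed a wider pattern. Its level was 176 and 219.8 CPM in meningeal fibroblast-like cells and 77.3 and 85.0 CPM in Olig glial progenitor-like cells, a class of 21 and 33 cells that express Olig1, Olig2 and related genes of the oligodendrocyte lineage. RGC-like cells held 9.61 and 18.7 CPM. The library values of these 3 classes did not overlap with each other or with those of any class below them. Mural-like cells (pericytes and smooth muscle cells of vessels, 43 and 65 cells) held 0 UMIs in both libraries.

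Bmp4, a ligand of dorsal midline and surface tissues, was found at 48.3 and 44.3 CPM in meningeal fibroblast-like cells, from 25 and 47 UMIs. In the other 15 classes there were from 0 to 2 UMIs per library. The meningeal fibroblast-like cells held 75.8% and 55.3% of all Bmp4 UMIs. In library 2 a further class of 7 choroid plexus epithelium-like cells held 57.9 CPM of Bmp4, 108 CPM of Bmp6 and 132 CPM of Bmp7. Library 1 had no cell of this class, so these values have no replicate.

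MGE interneuron-like cells, the class that includes the somatostatin-positive neurons the study asked about, held little of any of the 3 ligands. Bmp4 and Bmp6 were each at 0 UMIs in library 1 and at 1 UMI in library 2, out of 343 and 387 cells. Bmp7 stood at 4 and 2 UMIs, which is 2.64 and 1.18 CPM.

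**Figure D1:**
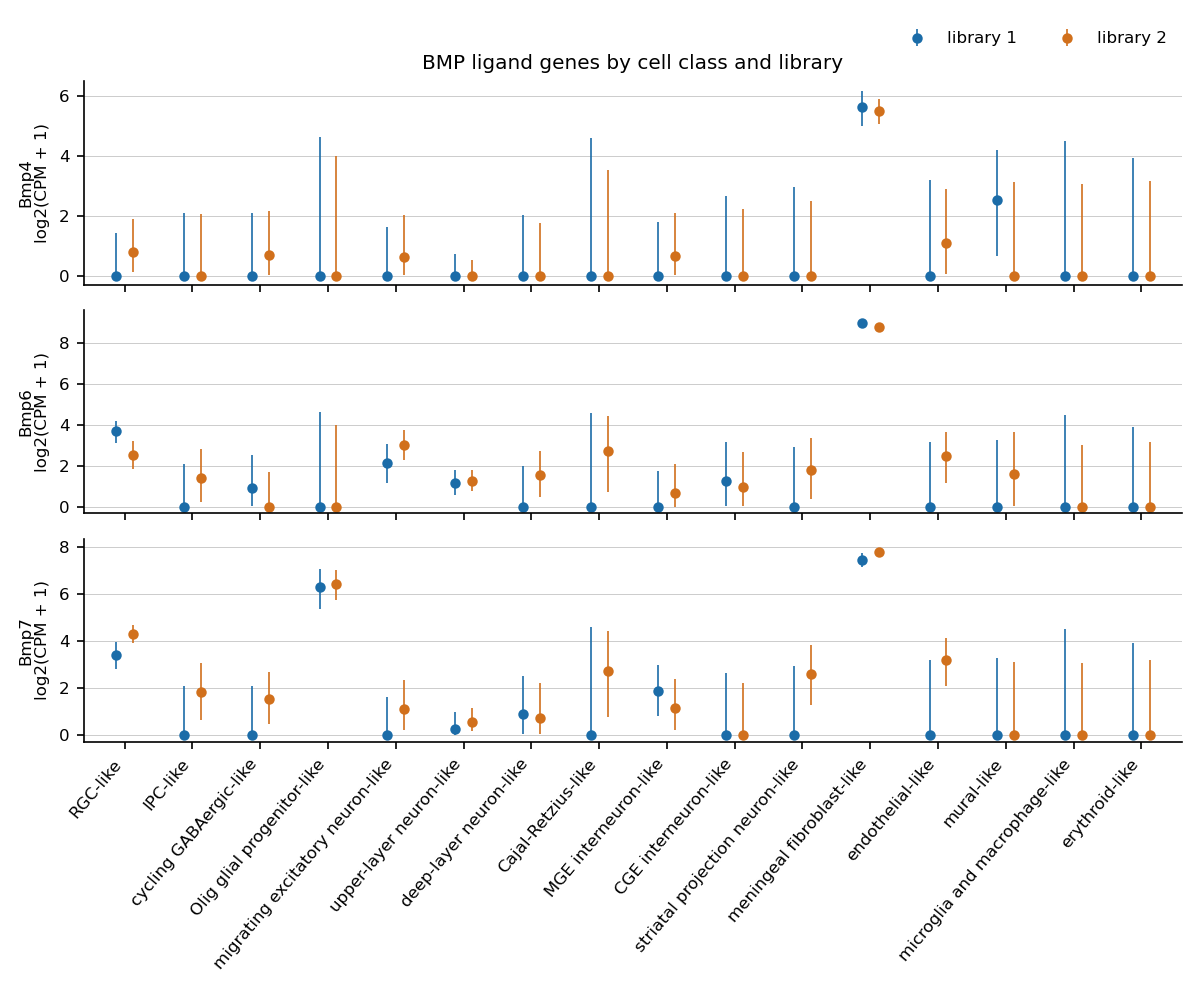
Levels of Bmp4, Bmp6 and Bmp7 on the log2(CPM + 1) scale in 16 cell classes, with 1 point per library and exact 95% Poisson intervals that cover counting error only. Meningeal fibroblast-like cells stand highest in all 3 panels, and Olig glial progenitor-like cells are second for Bmp7 with 77.3 and 85.0 CPM.

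Among the receptors, Bmpr1b was the most restricted. This type I receptor gene stood at 238 and 173 CPM in upper-layer neuron-like cells and at 144 and 143 CPM in RGC-like cells. Olig glial progenitor-like cells held 64.4 and 24.3 CPM and IPC-like cells 26.7 and 30.6 CPM. The former values came from 10 and 6 UMIs, and 12.3% ± 3.98 (SD, n = 2) of the Olig glial progenitor-like cells held a UMI. Deep-layer neuron-like cells held 29.7 and 13.5 CPM, so the neurons of the upper and the deep cortical layers did not overlap. All 4 classes of GABAergic cells (MGE interneuron-like, CGE interneuron-like, striatal projection neuron-like and cycling GABAergic-like) were at or below 6.14 CPM in each library, beside 3.81 and 2.18 CPM in erythroid-like cells.

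Bmpr1a, the more widely expressed type I receptor gene, was highest in RGC-like, IPC-like and cycling GABAergic-like cells, while Olig glial progenitor-like cells stood lower at 96.6 and 85.0 CPM. RGC-like cells held 186 and 164 CPM, IPC-like cells 162 and 138 CPM and cycling GABAergic-like cells 144 and 148 CPM, and the ranges of the latter pair overlapped. Upper-layer neuron-like cells held 71.9 and 60.2 CPM and deep-layer neuron-like cells 47.1 and 43.1 CPM. Endothelial-like cells, with 8.74 and 11.5 CPM from 4 and 10 UMIs, had the lowest level of any class except the erythroid-like cells and did not overlap with another class.

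Bmpr2, the type II receptor gene, was close to even. Apart from the erythroid-like cells (11.4 and 19.6 CPM), levels ran from 131 and 70.7 CPM in Cajal-Retzius-like cells to 212 and 257 CPM in endothelial-like cells, the lowest and the highest class means. RGC-like cells held 181 and 189 CPM. The 5 classes with the next highest means after the endothelial-like cells, RGC-like cells included, lay between 160.1 and 214 CPM and their ranges overlapped.

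**Figure D2:**
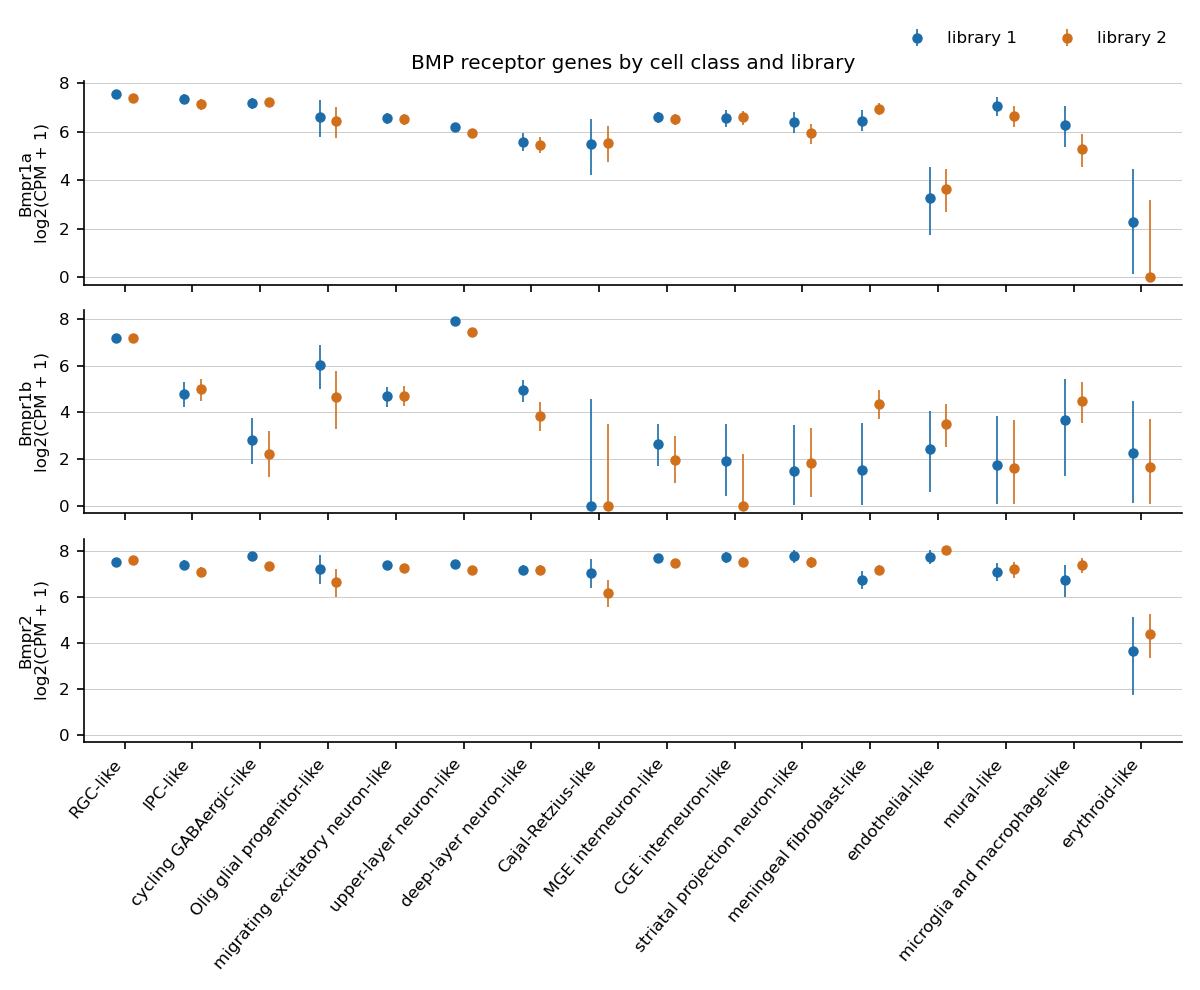
Levels of Bmpr1a, Bmpr1b and Bmpr2 on the log2(CPM + 1) scale in 16 cell classes, with 1 point per library and exact 95% Poisson intervals. Bmpr1b separates RGC-like and upper-layer neuron-like cells from the other classes, and Bmpr1a drops to 8.74 and 11.5 CPM in endothelial-like cells.

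The Id genes are short genes on different chromosomes of the mm10 (GRCm38) build: Id1 on chr2:152736251-152737410, Id2 on chr12:25093799-25096092, Id3 on chr4:136143822-136145392 and Id4 on chr13:48261116-48266028. RefSeq windows of GRCm38.p6 before a transcription start were matched for 8 of the 10 members, all but Id1 and Bmp7. The 250 bases upstream of the start of the 3 matched Id genes are shown 5′ to 3′ on the strand of the gene, because these genes had separate patterns across the classes below. Capitals mark GGCGCC, a GC-rich motif known to be bound by Smad1 and Smad5, which reads the same on both strands.
Id2 (chr12:25096093-25096342, minus strand): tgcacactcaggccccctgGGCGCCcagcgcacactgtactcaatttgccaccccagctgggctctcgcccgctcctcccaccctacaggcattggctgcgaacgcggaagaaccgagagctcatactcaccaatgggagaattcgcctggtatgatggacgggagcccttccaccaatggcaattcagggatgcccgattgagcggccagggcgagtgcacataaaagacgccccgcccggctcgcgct
Id3 (chr4:136143572-136143821, plus strand): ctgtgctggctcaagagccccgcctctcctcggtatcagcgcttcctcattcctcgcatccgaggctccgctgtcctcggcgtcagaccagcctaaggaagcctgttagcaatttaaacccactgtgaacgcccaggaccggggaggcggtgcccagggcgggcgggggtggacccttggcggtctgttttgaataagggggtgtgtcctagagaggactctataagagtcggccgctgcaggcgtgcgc
Id4 (chr13:48260866-48261115, plus strand): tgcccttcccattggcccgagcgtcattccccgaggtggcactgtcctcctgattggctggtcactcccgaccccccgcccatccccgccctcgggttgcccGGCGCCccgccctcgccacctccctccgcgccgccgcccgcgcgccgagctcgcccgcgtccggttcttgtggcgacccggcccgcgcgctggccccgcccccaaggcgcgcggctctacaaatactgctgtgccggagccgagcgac
The motif began 231 bases before the start of Id2 and 148 bases before that of Id4. It also lay in the windows of Bmpr1a and Bmpr2, at 198 and 105 bases, and in none of those of Id3, Bmp4, Bmp6 and Bmpr1b. Among all 32851 windows of the same length, 9.59% held it. The palindrome GTCTAGAC, known to be bound by Smad3 and Smad4, was in none of the members' windows and in 0.167% of all windows. A match is a run of letters and does not show that a factor binds there.

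Id1 and Id3, both early targets of BMP signaling in many cell types, were high in RGC-like cells and in cells of the vessels and meninges. Id1 stood at 168 and 232 CPM in endothelial-like cells, 90.2 and 92.1 CPM in RGC-like cells, 88.0 and 54.3 CPM in mural-like cells and 38.6 and 52.8 CPM in meningeal fibroblast-like cells. The meningeal values came from 76 UMIs, 20 of them in library 1, and 20.7% ± 7.54 (SD, n = 2) of those cells held a UMI. The ranges of neighbours in this order did not overlap, although the higher mural-like library came close to the RGC-like cells. Excitatory neuron-like cells of the upper and deep layers held from 1.42 to 2.94 CPM. Outside this order, the 7 choroid plexus epithelium-like cells of library 2 held 265 CPM of Id1 and 273 CPM of Id3, without a replicate.

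Id3 was at 488 and 454 CPM in meningeal fibroblast-like, 413 and 424 CPM in endothelial-like and 369 and 255 CPM in mural-like cells. RGC-like cells held 167 and 110.5 CPM, Olig glial progenitor-like cells 64.4 and 44.5 CPM and MGE interneuron-like cells 19.8 and 36.6 CPM. IPC-like cells held 4.46 and 9.34 CPM of Id3 and 5.35 and 11.0 CPM of Id1, so both genes were near the level of the erythroid-like cells there.

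The summed level of 8 immediate early genes, which rise during tissue dissociation, was 551 and 399.9 CPM in RGC-like cells, 139.9 and 94.3 CPM in IPC-like cells, 80.6 and 78.2 CPM in upper-layer neuron-like cells, 557 and 613 CPM in endothelial-like cells, 692 and 1227 CPM in mural-like cells and 1448 and 675 CPM in meningeal fibroblast-like cells. It was also 723 and 753 CPM in microglia and macrophage-like cells, which held 0 and 3.95 CPM of Id1 and 5.88 and 35.6 CPM of Id3. Of the 8 genes, 5 were called higher in RGC-like than in IPC-like cells and 6 higher than in excitatory neuron-like cells, where 21.0% and 57.7% of all genes were called, and their part in the levels of Id1 and Id3 was not tested.

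Id4, known for its expression in neural progenitors, followed another order. Striatal projection neuron-like cells held 552 and 349.8 CPM, RGC-like cells 312 and 299.9 CPM, CGE interneuron-like cells 177 and 119.9 CPM and cycling GABAergic-like cells 179.7 and 79.4 CPM. The first of these classes did not overlap with the second, and the latter pair overlapped with each other. IPC-like cells held 45.4 and 46.7 CPM, and MGE interneuron-like cells held 36.9 and 37.2 CPM. In Olig glial progenitor-like cells there were 0 UMIs in library 1 and 1 UMI in library 2.

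Id2 ran from progenitors to neurons in the opposite direction. This gene, known for its expression in postmitotic cortical neurons, stood at 133 and 106 CPM in RGC-like cells, 206 and 222 CPM in IPC-like cells, 555 and 438 CPM in migrating excitatory neuron-like cells, 683 and 681 CPM in upper-layer neuron-like cells and 767 and 841 CPM in deep-layer neuron-like cells. No pair of neighbours in this series overlapped. The 4 GABAergic classes held from 32.9 to 83.1 CPM, beside 61.0 and 28.3 CPM in the erythroid-like cells.

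**Figure D3:**
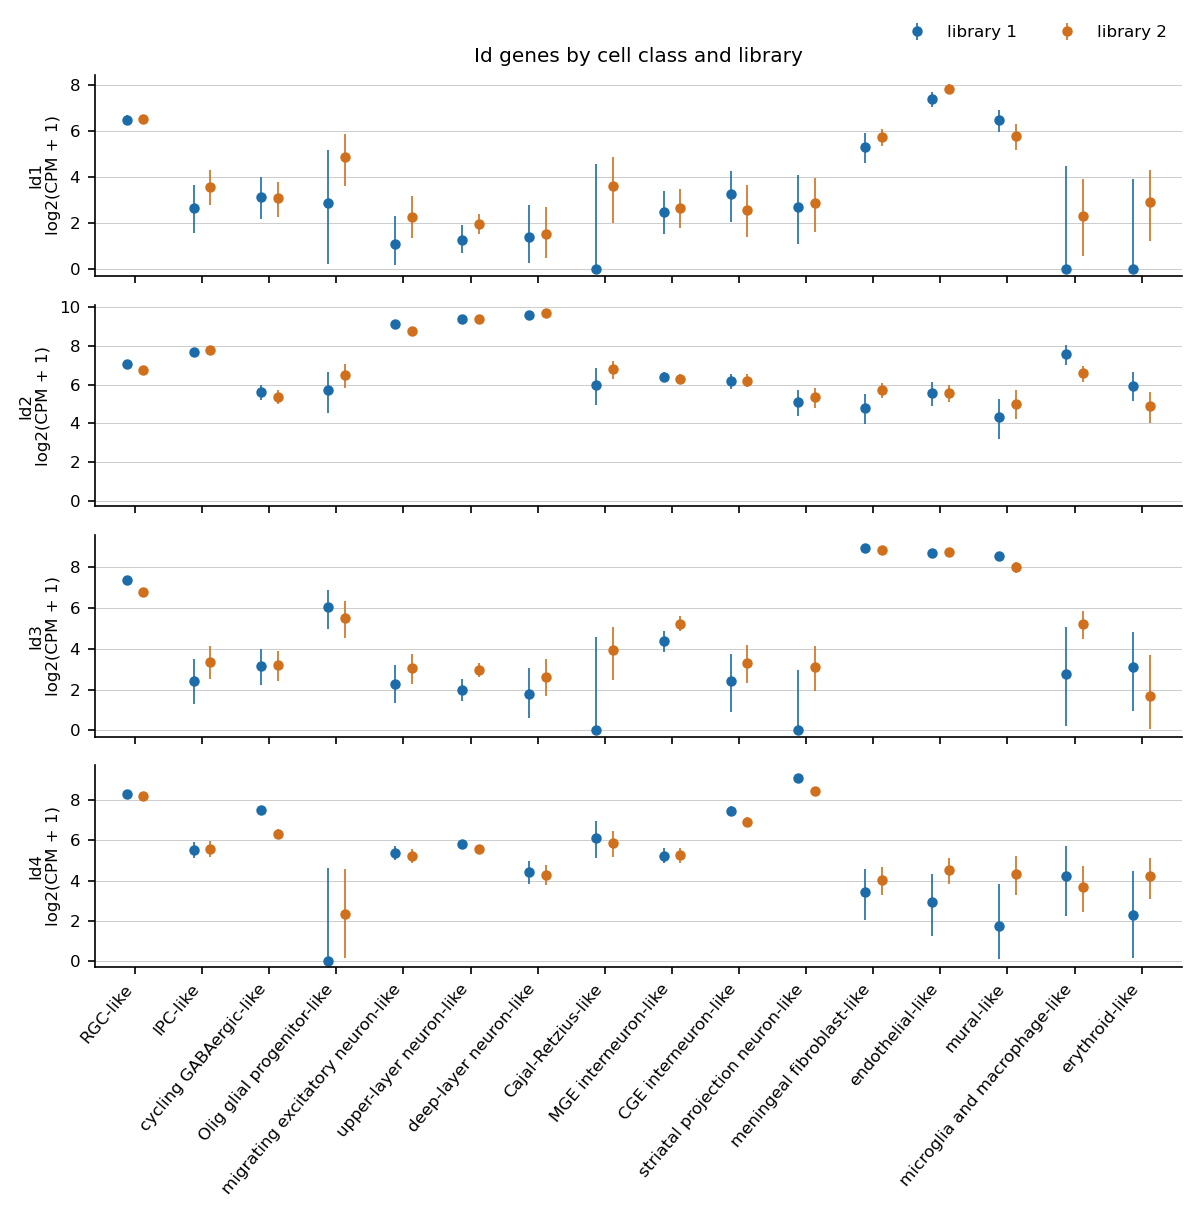
Levels of Id1, Id2, Id3 and Id4 on the log2(CPM + 1) scale in 16 cell classes, with 1 point per library and exact 95% Poisson intervals. Id1 and Id3 are high in RGC-like, meningeal and vascular classes, Id2 in excitatory neuron classes, and Id4 in striatal projection neuron-like and RGC-like cells.

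The class sums were compared with edgeR's quasi-likelihood test. The library was a block term, with p-values adjusted over all genes tested by the Benjamini-Hochberg method. A gene is called at an adjusted p under 0.05. The members and gene lists were chosen with earlier results of these data known. Counts of called members beside the share of all genes are therefore a description and no test of the set. All log2 fold changes and standard errors (SE) below come from this fit, and members with few UMIs in a class are given with their counts.

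When RGC-like cells were set against IPC-like cells, 7 of the 10 members were called, against 21.0% of all genes tested. RGCs line the ventricle and give rise to IPCs, which divide to make neurons. Higher in RGC-like cells were Id3 (log2 fold change 4.29, SE 0.37, adjusted p = 8.22e-13), Id1 (3.46, SE 0.29, adjusted p = 6.59e-13), Id4 (2.75, SE 0.22, adjusted p = 7.57e-14) and Bmpr1b (2.33, SE 0.23, adjusted p = 5.68e-11). Bmp7 and Bmp6 were also higher, at 71 against 3 and 39 against 2 UMIs over both libraries, which is 11.2-fold (95% counting interval 3.68 to 55.7) and 9.24-fold (2.39 to 79.0). DESeq2 did not call Bmp6 (adjusted p = 0.0656), and with predicted doublets removed its fitted log2 fold change was 6.20 (adjusted p = 0.000858) against 3.08 with them. The libraries taken singly gave log2 ratios of CPM + 1 of 3.69 and 1.12 for Bmp6 and of 4.95 and 3.43 for Id3. Id2 was lower in RGC-like cells by a log2 fold change of -0.84 (SE 0.16, adjusted p = 8.59e-05). When classes were assigned from cells thinned to 1500 UMIs, Id2 lost its call (adjusted p = 0.137), Id1 moved to 4.75 and Id3, which had 16 UMIs in the IPC-like cells of the full classes, to 8.46. At a mitochondrial limit of 5% Id3 was at 5.18. Bmpr1a and Bmpr2 were not called, with log2 fold changes of 0.23 (SE 0.14) and 0.34 (SE 0.15), and DESeq2 called Bmpr2 higher (0.39, adjusted p = 0.0456).

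Against excitatory neuron-like cells, for which upper-layer and deep-layer classes were averaged after taking logs, 8 members were called, where 57.7% of all genes were. The share of all genes is high in this comparison. Id1 was higher in RGC-like cells by 5.33 (SE 0.23, adjusted p = 2.66e-23), Id3 by 4.78 (SE 0.25, adjusted p = 4.60e-21), Id4 by 3.18 (SE 0.16, adjusted p = 4.23e-21) and Bmpr1a by 1.58 (SE 0.12, adjusted p = 1.60e-15). Bmp7, with 71 UMIs in RGC-like cells against 7 in the excitatory classes together, and Bmp6 (2.55, SE 0.51) were higher too, with log2 ratios of CPM + 1 of 3.11 and 1.14 for Bmp6 and of 5.49 and 4.01 for Id3 in libraries 1 and 2. Bmpr1b was called higher (1.05, SE 0.16) against this mean, while the upper-layer neuron-like cells alone held more of it than the RGC-like cells in both libraries. With classes assigned on thinned cells Id1 was at 4.33, and under a stricter class rule, with 1 more marker required, Bmp6 was at 3.29. Id2 was lower in RGC-like cells (-2.74, SE 0.13, adjusted p = 8.75e-22). Bmp4 and Bmpr2 were not called.

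Within the RGC-like class, cells with at least 3 of 10 cycle genes detected (124 and 157 cells) were set against those with at most 1 (84 and 166 cells). Of the 8 members that passed the filter on low counts, 1 was called, where 23.0% of genes were. Id1 was at 112 and 107 CPM in cycling and at 62.3 and 83.9 CPM in non-cycling cells, a log2 fold change of 0.57 (SE 0.18, adjusted p = 0.0153). DESeq2 did not call it (adjusted p = 0.482). Of the 6 immediate early genes tested here, 4 were called lower in cycling cells and 0 higher, beside the 23.0% of all genes. Their part in the level of Id1 was not tested. Id3 (-0.25, SE 0.14) and Id4 (-0.28, SE 0.13) were not called, and Id4 was called lower with predicted doublets removed (-0.31, adjusted p = 0.0300). Its libraries went opposite ways, with log2 ratios of CPM + 1 of 0.07 in library 1 and -0.61 in library 2. Bmp6, below the filter, had 11 UMIs in cycling and 24 in non-cycling cells.

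Upper-layer and deep-layer neuron-like cells differed in 3 of 10 members, with 14.6% of all genes called. Bmpr1b was higher in the upper-layer class by 3.27 (SE 0.22, adjusted p = 4.05e-16), and Id4 by 1.36 (SE 0.29, adjusted p = 0.000411). With classes assigned on thinned cells Id4 had a log2 fold change of 1.45 and no call (adjusted p = 0.137), and Bmpr1b was at 4.30. Bmpr1a differed by 0.53 (SE 0.17, adjusted p = 0.0266), a call that was lost under 5 of the 8 alternatives that refit the comparison with both libraries (adjusted p from 0.0625 to 0.739). Id2 was not called (-0.25, SE 0.12), and with DESeq2 size factors it was called lower (-0.36, adjusted p = 0.0432).

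MGE interneuron-like cells differed from the mean of the excitatory neuron-like classes in 4 of 10 members, with 18.9% of all genes called. Id3 (2.61, SE 0.38, adjusted p = 6.44e-07) and Bmpr1a (0.76, SE 0.14, adjusted p = 5.07e-05) were higher in the MGE interneuron-like cells. Bmpr1b (-3.98, SE 0.37, adjusted p = 8.36e-12) and Id2 (-3.21, SE 0.15, adjusted p = 4.50e-22) were lower. Bmpr2 missed the threshold with 0.34 (SE 0.13, adjusted p = 0.0535) and was called higher by DESeq2 (0.33, adjusted p = 0.0479) and at a mitochondrial limit of 5% (0.50, adjusted p = 0.0273). Id1 was called higher with predicted doublets removed (1.56, adjusted p = 0.0384), where Bmpr1b, with 13 UMIs in the full class, stood at -5.03. On thinned cells Bmpr1b was at -5.23, and at a mitochondrial limit of 5% Id3 was at 3.42.

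Cycling GABAergic-like cells, dividing cells with genes of GABAergic neurons, had lower levels than RGC-like cells for 7 of 10 members, with 37.1% of all genes called. Bmpr1b fell from 695 to 13 UMIs over both libraries (-4.83, SE 0.32, adjusted p = 3.25e-16), Id3 by 4.03 (SE 0.34, adjusted p = 2.76e-13), Id1 by 3.52 (SE 0.28, adjusted p = 7.01e-14), Id2 by 1.41 (SE 0.21) and Id4 by 1.26 (SE 0.18). Bmp6 was counted with 1 UMI and Bmp7 with 3 UMIs in this class. On thinned cells Bmpr1b, Id3 and Id1 were at -6.02, -5.05 and -4.47. The log2 ratio of Id4 was -0.79 in library 1 and -1.90 in library 2. Bmpr1a and Bmpr2 were not called, with log2 fold changes of -0.20 (SE 0.13) and 0.04 (SE 0.14), and Bmpr1a was called lower with predicted doublets removed (-0.34, adjusted p = 0.0464).

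Olig glial progenitor-like cells differed from RGC-like cells in 7 of 10 members, while 11.5% of all genes were called. Bmp7 was higher, by 2.36 (SE 0.44, adjusted p = 0.000104). Id4 was at 1 UMI over both libraries against 1483 in RGC-like cells, a ratio of 0.00814 (95% counting interval 0.000206 to 0.0454, adjusted p of the fit 1.31e-10). Id1 (-2.34, SE 0.46, adjusted p = 0.000195), Bmpr1b (-1.95, SE 0.39, adjusted p = 0.000259), Id3 (-1.51, SE 0.42, adjusted p = 0.0122), Bmpr1a (-1.07, SE 0.25, adjusted p = 0.00224) and Bmpr2 (-0.78, SE 0.26, adjusted p = 0.0434) were lower. The call of Bmpr2 was lost without the library block (adjusted p = 0.0528) with DESeq2 (adjusted p = 0.0955) and with its size factors in edgeR (adjusted p = 0.144), and that of Id3 with DESeq2 (adjusted p = 0.221). Id2 was called lower without the filter on low counts (-0.90, adjusted p = 0.0378). Single libraries gave log2 ratios of CPM + 1 of -3.62 and -1.67 for Id1, of -1.15 and -2.51 for Bmpr1b and of -0.29 and -0.96 for Bmpr2. With 21 and 33 cells this was the smallest class compared, and under 4 alternatives it fell below 20 cells in a library.

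Bmp4 passed the filter on low counts only through the meningeal fibroblast-like cells, the class where it was high, so its values there are a description. Of the other 9 members, 8 were called between these cells and RGC-like cells, with 33.7% of all genes called. Bmp6, Bmp7 and Id3 were higher. Bmp6 differed by 6.03 (SE 0.22, adjusted p = 2.19e-24), Bmp7 was 14.0-fold higher (95% counting interval 10.8 to 18.4, adjusted p = 1.65e-14) and Id3 differed by 1.97 (SE 0.18, adjusted p = 2.09e-12). Bmp4 had 72 UMIs against 2, a ratio of 111 (95% counting interval 29.6 to 932). Bmpr1b (-3.13, SE 0.31), Id4 (-4.28, SE 0.32), Id2 (-1.27, SE 0.24), Id1 (-0.76, SE 0.22) and Bmpr1a (-0.46, SE 0.16) were lower, with Id1 not called by DESeq2 (adjusted p = 0.158) and Bmpr1a not called under DESeq2 size factors or the stricter class rule (adjusted p = 0.0646 and 0.0696). Ttr RNA was more frequent in library 2. In meningeal fibroblast-like cells Bmp7 was higher in library 2 and Bmp6 and Bmp4 in library 1, and the part of choroid plexus RNA in these levels was not tested. In this class 7 and 16 cells held over 3 times the median UMIs of their library, and each of the 8 members was also called with predicted doublets removed. Without those doublets the log2 fold change of Id2 was -2.10, and Bmpr1b, with 22 UMIs before that step, was further below RGC-like cells. In libraries 1 and 2 the log2 ratios of CPM + 1 were 5.29 and 6.21 for Bmp6, -5.63 and -2.79 for Bmpr1b, -4.88 and -4.22 for Id4, -2.26 and -1.04 for Id2 and -1.09 and -0.42 for Bmpr1a.

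In endothelial-like cells 7 members were called against RGC-like cells, where 36.2% of all genes were. Id3 (1.72, SE 0.19, adjusted p = 1.80e-10), Id1 (1.27, SE 0.17, adjusted p = 3.27e-08) and Bmpr2 (0.49, SE 0.16, adjusted p = 0.0123) were higher. Bmpr1a (-3.90, SE 0.28, adjusted p = 1.49e-15), Bmpr1b (11 UMIs, -3.96, SE 0.37, adjusted p = 4.28e-12), Id4 (-4.05, SE 0.32) and Id2 (-1.24, SE 0.25) were lower. Single libraries gave log2 ratios of CPM + 1 of -5.37 and -3.71 for Id4. With predicted doublets removed Id4 was at -5.24 and Bmpr1b, with 11 UMIs before that step, at -6.86. Bmp7, with 7 UMIs before that step, was then called lower (adjusted p = 0.00105). Among other receptors, Acvrl1, the type I receptor that binds BMP9 and BMP10 in endothelium, was at 89.6 and 95.8 CPM in endothelial-like cells and at 0 UMIs in RGC-like cells. Eng, the gene of its co-receptor endoglin, was at 321 and 352 CPM against 0.458 and 1.12 CPM.

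Mural-like cells differed from RGC-like cells in 6 members, with 30.1% of all genes called. Id3 was higher by 1.20 (SE 0.21, adjusted p = 7.88e-06), without a call in DESeq2 (adjusted p = 0.0922). Bmp7 had 0 UMIs against 71 in RGC-like cells, which is at least 4.38-fold lower when 3 UMIs over both libraries are taken as the limit. Bmpr1b was at 2 UMIs, a ratio of 0.0155 (95% counting interval 0.00188 to 0.0564). Id4 (10 UMIs, -4.74, SE 0.39), Id2 (-2.18, SE 0.33) and Bmpr1a (-0.59, SE 0.18) were also lower. Bmpr1a lost its call with DESeq2 size factors (adjusted p = 0.0584), under the stricter class rule (adjusted p = 0.0524) and with classes assigned on thinned cells, where its log2 fold change was -0.19 (adjusted p = 0.678). Bmp6, with 1 UMI in this class, was called lower under the stricter class rule (adjusted p = 0.0183). For Id4 the log2 ratio of CPM + 1 was -6.53 in library 1 and -3.93 in library 2. Id1 was not called (-0.34, SE 0.24).

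Meningeal fibroblast-like cells were further set against mural-like cells, and 3 of the 9 members other than Bmp4 were called, with 14.4% of all genes called. Bmp7 was at least 61.5-fold higher than the limit of 3 UMIs over the mural-like cells. Bmp6 had 720 UMIs against 1. Bmp4, given as a description, had 72 against 2. Id3 was higher by 0.77 (SE 0.20, adjusted p = 0.00466). DESeq2 called Bmp6 and Bmp7 and not Id3 (adjusted p = 0.541). Bmpr1b was called higher without the filter on low counts (2.78, adjusted p = 0.0286) and Id2 under the stricter class rule (1.37, adjusted p = 0.0360).

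Endothelial-like and mural-like cells, which together form the vessel wall, differed in 3 members, with 15.7% of all genes called. Endothelial-like cells held more Id1 (1.61, SE 0.24, adjusted p = 6.73e-07) and Bmpr2 (0.87, SE 0.21, adjusted p = 0.00138). In libraries 1 and 2 the log2 ratio of CPM + 1 of Id1 was 0.93 and 2.07. Endothelial-like cells held less Bmpr1a (-3.32, SE 0.36, adjusted p = 4.01e-10). Id3 was not called (0.52, SE 0.21, adjusted p = 0.0823), and under 3 alternatives it was (adjusted p from 0.00681 to 0.0210). Id2 was called higher in endothelial-like cells under the stricter class rule (1.44, adjusted p = 0.0271).

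**Figure D4:**
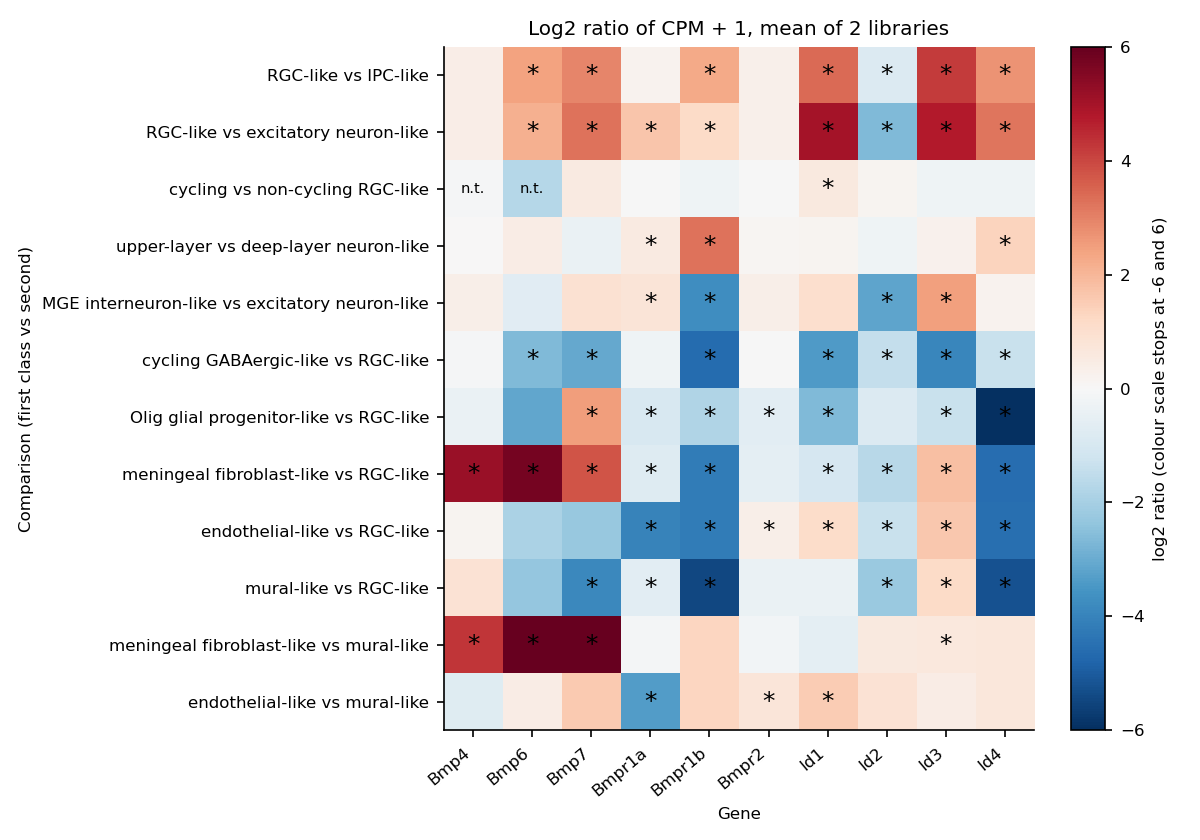
Log2 ratio of CPM + 1 between the first and the second class of each of 12 comparisons, as the mean of 2 libraries, for the 10 members. An asterisk marks an adjusted p under 0.05 in the edgeR fit and n.t. a gene below the filter on low counts, which Bmp4 passed only through meningeal fibroblast-like cells. Id1 and Id3 are red against IPC-like and excitatory neuron-like cells, and Bmpr1b is blue where GABAergic, meningeal and vascular classes are set against RGC-like or excitatory neuron-like cells.

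The wider pathway was read from a list of 49 other genes (further ligands, receptors, antagonists, Smads and targets), of which 35 passed the filter in the fit of all classes. Nog, Msx1, Smoc2 and Sostdc1 passed it only through the class where they were high. Counts that include them, here and in the next paragraphs, are therefore a description. Nog was called where RGC-like cells were set against IPC-like, Olig glial progenitor-like, meningeal fibroblast-like and endothelial-like cells. Smoc2 was called between meningeal fibroblast-like and RGC-like cells. Against IPC-like cells, 7 of the 35 were higher and 4 lower in RGC-like cells, beside 21.0% of all genes called. Nog, which encodes the BMP antagonist noggin, was at 25.6 and 19.1 CPM in RGC-like cells and at 0 UMIs in IPC-like cells. Smoc1, whose product also restrains BMP signals, was lower (36.2 and 43.8 against 102 and 81.5 CPM, log2 fold change -1.17, SE 0.20), as was the type II receptor gene Acvr2b (-1.05, SE 0.27). Against excitatory neuron-like cells, 15 were higher and 6 lower, a share close to the 57.7% of all genes called. Acvr1, a further type I receptor gene, was lower in RGC-like cells (-1.86, SE 0.16), at 42.6 and 34.4 CPM against 139 and 127 CPM in upper-layer neuron-like cells.

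In MGE interneuron-like cells, 5 of the 35 were higher and 2 lower than in excitatory neuron-like cells, beside 18.9% of all genes. Smoc1 (3.93, SE 0.31) and Bmper (3.70, SE 0.27), which encode extracellular modulators of BMPs, were among those that were higher. Bmper was at 77.2 and 77.4 CPM there, and at 7.26 and 10.7 CPM in upper-layer neuron-like cells. In Olig glial progenitor-like cells 1 of the 35 was higher and 6 lower than in RGC-like cells, beside 11.5% of all genes, and the higher gene was Smoc1 (148 and 231 CPM). Between upper-layer and deep-layer neuron-like cells 4 were higher and 4 lower, beside 14.6% of all genes. Gdf10, a BMP-like ligand gene, was at 0.354 and 0 CPM in upper-layer and at 14.0 and 11.6 CPM in deep-layer neuron-like cells.

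In the meningeal fibroblast-like cells, 12 of the 35 were higher and 6 lower than in RGC-like cells, beside 33.7% of all genes. Bmp5, a ligand gene close to Bmp6 and Bmp7 in sequence, was at 108 and 117 CPM in meningeal fibroblast-like and at 99.9 and 92.0 CPM in mural-like cells, and at 0 UMIs in RGC-like cells. Smoc2 was at 25.1 and 20.8 CPM in meningeal fibroblast-like and at 0 UMIs in mural-like and RGC-like cells. The antagonist gene Chrd was at 17.4 and 15.1 CPM against 0 UMIs in mural-like cells. In endothelial-like cells, 10 were higher and 9 lower than in RGC-like cells, beside 36.2% of all genes, with 5 of the 7 tested Smad and Smurf genes higher and 0 lower. Bambi, the gene of a membrane pseudoreceptor, was at 155 and 135 CPM in endothelial-like and at 7.13 and 4.18 CPM in mural-like cells (4.75, SE 0.47, adjusted p = 8.94e-11). Smad7, the gene of an inhibitory Smad, was at 50.3 and 69.3 CPM against 14.3 and 8.36 CPM (2.54, SE 0.43, adjusted p = 1.29e-05).

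The 3 E protein genes were also tested. All 3 were higher in upper-layer than in deep-layer neuron-like cells, where 14.6% of all genes were called, with Tcf12 at 1.82 (SE 0.19, adjusted p = 3.27e-10) and Tcf4 at 0.96 (SE 0.17, adjusted p = 3.53e-05). Tcf12 was at 262 and 237 CPM in the former and at 71.9 and 68.2 CPM in the latter, and at 766 and 785 CPM in MGE interneuron-like cells. In RGC-like cells 2 E protein genes were higher and 1 lower than in excitatory neuron-like cells, beside 57.7% of all genes. Against IPC-like cells 1 was lower and 0 higher, beside 21.0% of all genes. Every other comparison also had at least 1 call among them, in directions that differed.

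To compare shares of cells, each cell was thinned to 1500 UMIs, the lowest number of a kept cell, so that no cell was left out. Before thinning, median UMIs in libraries 1 and 2 were 9060 and 7070 in RGC-like, 7742 and 6935 in upper-layer neuron-like, 11301 and 8510 in endothelial-like, 12140.0 and 10307 in meningeal fibroblast-like and 4195 and 4751 in erythroid-like cells. A UMI of Id2 was then found in 55.7% ± 1.38 (SD, n = 2) of upper-layer neuron-like cells and in 7.28% ± 4.08 of erythroid-like cells. Id4 was found in 35.5% ± 1.22 of RGC-like cells, against 0.549% ± 0.777 of erythroid-like cells. Id3 was found in 36.8% ± 11.0 and Id1 in 26.1% ± 10.8 of endothelial-like cells, against 1.40% ± 0.421 and 1.10% ± 1.55 of erythroid-like cells. Bmp6 was found in 44.4% ± 2.44 of meningeal fibroblast-like cells and in 0% of erythroid-like cells. Without thinning, the 5 shares were 89.3%, 76.7%, 80.0%, 53.0% and 85.0% in this order. A UMI of at least 1 of the 3 ligands was seen in 61.5% and 58.3% of thinned meningeal fibroblast-like cells. A type I receptor and Bmpr2 were seen together in 11.7% and 11.2% of thinned RGC-like cells. At least 2 of the 4 Id genes were seen in 18.2% and 13.7% of them, and in 6.19% and 4.37% of upper-layer neuron-like cells. Endothelial-like cells, at 7.89% and 20.7%, overlapped with the RGC-like cells.

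**Figure D5:**
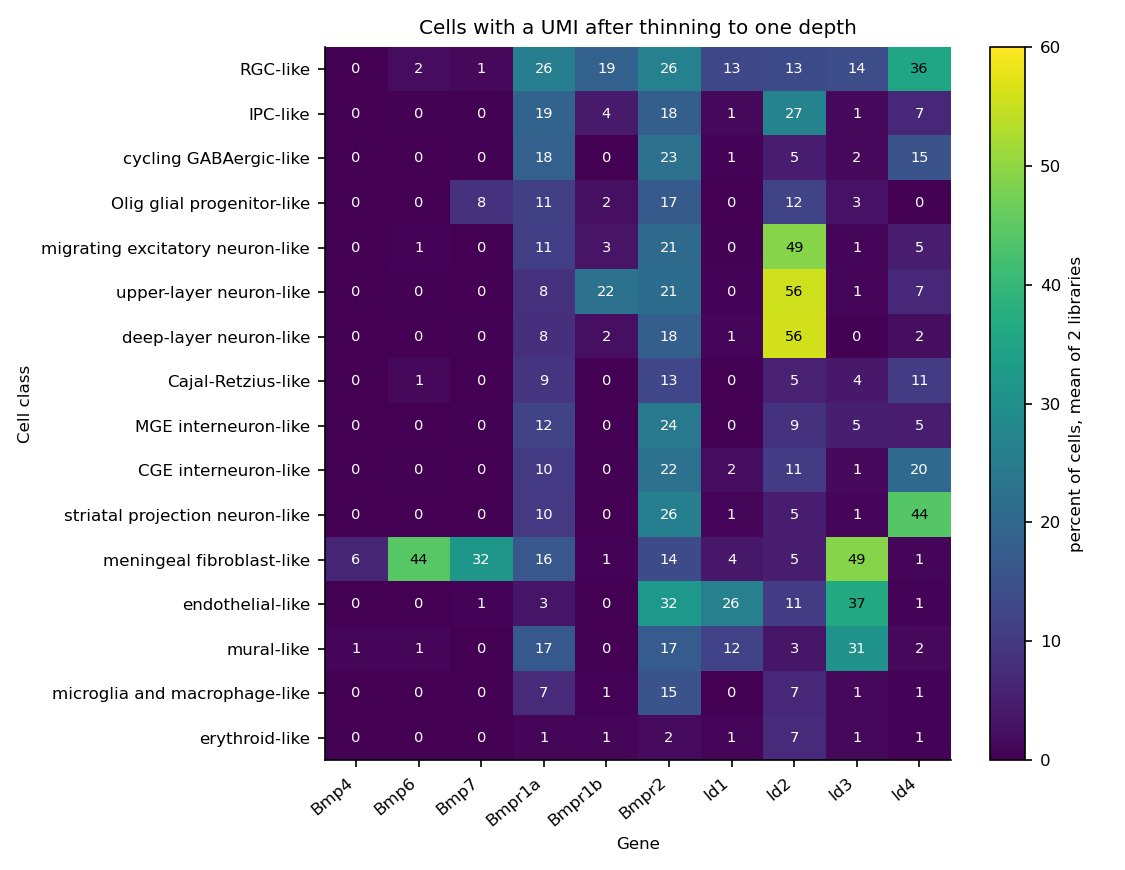
Percent of cells with at least 1 UMI of each member after thinning every cell to 1500 UMIs, as the mean of 2 libraries, in 16 cell classes. Id2 is at 55.7% in upper-layer neuron-like cells, Bmp6 at 44.4% in meningeal fibroblast-like cells, and erythroid-like cells are at 7.28% for Id2, a level that several other classes do not exceed.

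The likeness of other genes to each member was described by Pearson's r of log2(CPM + 1) over 32 sums (16 classes in 2 libraries), among 13262 genes. The points share libraries and free RNA, and r is given as a description. Closest to Bmp4 were Msx1 (0.93), Srpx2 (0.93) and Fmod (0.93), to Bmp6 Cyp1b1 (0.92), D630033O11Rik (0.90) and Ccn3 (0.90), and to Bmp7 Mro (0.87), Sema3d (0.85) and Pdgfra (0.85), the last of which is a marker used to assign the Olig class. For Bmpr1a they were Cep164 (0.90), Cdc40 (0.90) and Ift74 (0.89), and for Bmpr2 Insr (0.95), Ccny (0.95) and Ptpn12 (0.95). For Bmpr1b the highest values were lower, with Limch1 (0.71), Rlbp1 (0.71) and Gpc5 (0.71). The genes closest to Id2 were Neurod6 (0.92), Zbtb18 (0.89) and Neurod2 (0.85), all expressed by excitatory cortical neurons. Pawr (0.88), Tcf7l1 (0.87) and Cavin3 (0.86) were closest to Id1, Sparc (0.89), Ppic (0.89) and Hapln3 (0.89) to Id3, and Kif21a (0.78), Arl4c (0.77) and D030055H07Rik (0.76) to Id4. Among the members themselves the highest values were those of Id1 with Id3 (0.84) and of Bmp4 with Bmp6 (0.82), and the lowest that of Id1 with Id2 (-0.47).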

How the data were processed

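Single-cell libraries of papain-dissociated cortex were made with the 10x Genomics 3' v3.1 kit. The authors aligned the reads to mm10 and deposited raw UMI counts per gene and cell for each library. The submitters' processing notes name Cell Ranger 7.0.0 and the headers of the matrices 7.1.0. Whether intronic reads were counted is not given in the sources used here. Cells with 1500 to 60000 UMIs and under 10% mitochondrial UMIs were kept. A cell was assigned to a class when enough markers of its list were detected (3 to 6, by list). The detected share also had to exceed that of every competing list by at least 0.2. The RGC, upper-layer and deep-layer lists did not compete with the Olig list, so Olig glial progenitor-like cells could hold RGC markers. RGC-like cells, in contrast, had to exceed the Olig list. Classes of GABAergic neurons could use the shared GABAergic list against classes outside them. Doublets stayed in the data and their removal was an alternative, with the highest-scoring cells taken out at the rate usual for the kit's cell load. These 432 and 1111 cells are what is meant above by predicted doublets. The automatic threshold of the doublet score marked 0 and 251 cells. UMIs were summed per library and class, since cells are not replicates. Genes with at least 10 UMIs in at least 2 sums were fitted with edgeR 4.0.16 (R 4.3.3, TMM scaling, quasi-likelihood test, library as a block) over the 16 classes, and cycling RGC-like cells in a separate fit of 4 sums. This left 14628 genes tested in the first fit and 10101 in the second. The block is by construction, since classes of 1 library come from the same dissociated tissue. Replicate numbers follow the order of the samples. Intervals are exact at 95% and cover counting error only, and a count of 0 allows up to 3 UMIs. The fit was also run on simulated counts in which only a small set of genes differed between classes. These data differ in many more genes, so no conclusion is drawn from that run. DESeq2 1.42.0, its size factors, other class rules, other cell filters and each library left out were tried as alternatives. All 10 members are named, and of the other pathway genes the 2 called genes with the largest change in each direction, provided that both libraries pointed the same way and the higher level reached 10 CPM, supplied most of those described. Values of Tcf12 in MGE interneuron-like cells, and a few further classes of named genes, were added after they had been seen. The members and gene lists were chosen with earlier results of these data known.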

Additional observations from a re-analysis of the deposited data

How the results depend on the processing

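No called member reversed its direction under any alternative that was run. Of 440 values of called members under the alternatives with a test, 417 kept their call and direction, and of the values of members without a call 16 gained one. Of the other 327 such values, 31 changed sign. The number of called members stayed within 1.5 times in 75 of 82 values. It moved from 7 to 4 between RGC-like and IPC-like cells when classes were assigned on thinned cells, where the 3 ligands were no longer tested and Id2 was not called. It moved from 1 to 0 with DESeq2, to 2 without the filter on low counts and to 2 with doublets removed for cycling against non-cycling cells of the RGC-like class. On thinned cells it moved from 3 to 1 between upper-layer and deep-layer neuron-like cells. With Bmp4 counted, it moved from 4 to 2 with DESeq2 between meningeal fibroblast-like and mural-like cells, and from 3 to 5 with 1 more marker required between endothelial-like and mural-like cells. The cause of these moves was not tested.

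Without the library as a replicate block, 117 of 118 values kept their side of the threshold, and Bmpr2 in Olig glial progenitor-like cells lost its call (adjusted p = 0.0528 in edgeR). With 1 library left out there is no test, and called members kept their direction in 132 of 132 values. Bmpr1a lost its call against RGC-like cells with DESeq2 size factors and with the stricter class rule, in meningeal fibroblast-like cells (adjusted p = 0.0646 and 0.0696) and in mural-like cells (0.0584 and 0.0524 in edgeR). On thinned cells Bmpr1a also lost it in mural-like cells (log2 fold change -0.19, adjusted p = 0.678). There Id4 lost its call between upper-layer and deep-layer neuron-like cells (log2 fold change 1.45, adjusted p = 0.137). With at least 2 UMIs required, the shares of thinned cells were 8.30% for Id1 and 11.2% for Id3 in endothelial-like, 11.7% for Id4 in RGC-like, 25.9% for Id2 in upper-layer neuron-like and 18.8% for Bmp6 in meningeal fibroblast-like cells. Without thinning they were 53.0%, 80.0%, 76.7%, 89.3% and 85.0%.

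Some alternatives left a class with under 20 cells in a library and were not run. These were classes on thinned cells for cycling RGC-like, Olig glial progenitor-like, meningeal fibroblast-like and endothelial-like cells, the stricter rule and doublet removal for Olig glial progenitor-like cells, and the mitochondrial limit of 5% for Olig, meningeal, endothelial and mural classes. With 2 libraries the spread rests on few samples, and for the ligands most classes outside the meninges held few UMIs, with RGC-like cells and, for Bmp7, Olig glial progenitor-like cells as exceptions. Class assignment needs detected markers, so shallow cells of each type are under-represented.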
